A study of Mus musculus with 20 samples.

Results

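The comparison described here is the difference between 2 IL-33 responses, that of Dusp5-/- eosinophils minus that of Dusp5+/+ eosinophils, taken gene by gene. For each of 10 mice the response was the log2 value after IL-33 minus the log2 value without it, and the 5 knockout responses were set against the 5 wild-type responses. All 20 arrays of the series entered. Of 20630 probe sets on the arrays, 17826 carried exactly 1 gene symbol, and 11789 of these were bright enough to test. Bone marrow of Dusp5+/+ (wild type) and Dusp5-/- (knockout) mice was grown into eosinophils, and on day 12 the cells of each mouse were kept in medium alone or given IL-33 at 25 ng/ml for 4 h. The 4 groups were wild type untreated, knockout untreated, wild type with IL-33 and knockout with IL-33, with 5 mice per genotype. The deletion was labelled as a plain homozygous knockout, with no Cre or transgene, and the age and sex of the mice were not given. The cells are a culture product, not eosinophils taken from tissue.

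IL-33 is an alarmin of the interleukin-1 family that is set free by damaged barrier cells. Its receptor signals through MyD88 to NF-kB and to the MAP kinases, and eosinophils answer with cytokines, chemokines and survival signals. DUSP5 is a phosphatase of the nucleus that switches ERK off, and its gene is itself induced by ERK, which closes a feedback loop. ERK acts on transcription through the ternary complex factors and SRF, which drive the early growth response genes, and through AP-1, in which Fra-1 (Fosl1) is the subunit most closely tied to lasting ERK activity. The comparison asks whether the cells without Dusp5 showed 1 uniformly larger answer to IL-33 or whether particular genes left that common pattern.

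The Dusp5 probe set was low on every knockout array. Untreated levels were 7.85 to 8.51 on the wild-type arrays and 4.02 to 4.85 on the knockout arrays, on the log2 scale. After IL-33 they were 9.28 to 10.23 and 4.68 to 5.15, which matches the labelled genotype on all 20 arrays. The titles of the IL-33 samples name Dusp5 where the treatment label reads IL-33, and the treatment label was used. Eosinophil granule genes were near the top of the range on every array (Epx 12.85 to 13.81, Prg2 13.62 to 13.89). Transcripts that define other lineages were there too. The mast cell and basophil gene Cpa3 was at 12.26 to 12.90, the basophil gene Mcpt8 at 11.13 to 11.94 and the monocyte receptor gene Csf1r at 10.08 to 11.32, whereas the T-cell gene Cd3e stayed at 4.09 to 4.68. In such bulk RNA, fewer cells of a type and less RNA per cell cannot be told apart.

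The knockout response was larger on the whole. Over the 11789 probe sets the line through the origin that relates the knockout to the wild-type response had a slope of 1.15, called the gain below. The mean responses of the 2 genotypes had a Pearson r of 0.97 across genes, and genes are not replicates. IL-33 moved 8486 probe sets (72% of those tested, limma, Benjamini-Hochberg adjusted p under 0.05), 3271 up (27.7%) and 5215 down (44.2%). The knockout response was the larger for 2138 of the 3271 (65.4%) that rose and for 4161 of the 5215 (79.8%) that fell. Among the 335 probe sets that rose by at least 1 on the log2 scale it was larger for 252 (75.2%), with a median ratio of 1.10. Among the 285 that fell by at least 1 it was deeper for 255 (89.5%), with a median ratio of 1.20. The gain was smaller for rises (1.11 over all genes that rose on average) than for falls (1.22).

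The larger answer was a property of each mouse. The response of a mouse was regressed on the mean response of the other 9 mice, the 2 genotypes weighted equally, so that a slope of 1 is an average-sized answer. Wild-type mice 1 to 5 had slopes of 0.863, 0.976, 0.904, 0.911 and 0.920. Knockout mice 1 to 5 had slopes of 1.031, 1.001, 1.148, 1.042 and 1.064. No wild-type slope reached the lowest knockout slope. The means were 0.915 ± 0.0405 and 1.057 ± 0.0558 (SD, n = 5 mice each), which differed by 0.142 (exact 2-sided permutation test over 252 assignments, p = 0.00794, the smallest that 5 against 5 mice allow). The groups also stayed apart, at the same exact p, over the 335 risers (means 0.953 and 1.044), the 34 probe sets that rose by at least 3 (0.962 and 1.037) and the 285 fallers (0.913 and 1.082). These 3 sets are parts of the same arrays, so they do not add independent tests.

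**Figure D1:**
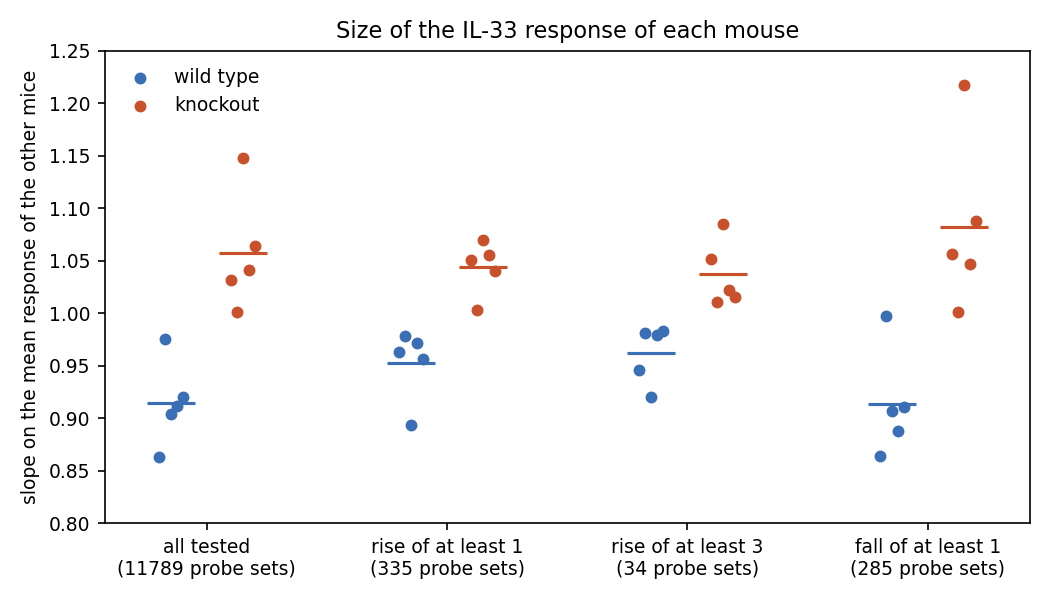
Slope of each mouse's IL-33 response on the mean response of the other 9 mice, over all tested probe sets, rises of at least 1, rises of at least 3 and falls of at least 1 on the log2 scale. Points are mice and bars are means of 5; the vertical axis starts at 0.8. The knockout points (orange) lie above every wild-type point (blue) in all 4 sets.

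No single gene passed the test of the difference. With limma, 0 of 11789 probe sets (0%) had an adjusted p under 0.05, and the smallest adjusted p was 0.0941. At an unadjusted p under 0.05 there were 1635 (13.9%), of which 505 (4.28%) were more positive in the knockout and 1130 (9.59%) more negative. The 5 knockout responses all lay above the 5 wild-type ones for 106 probe sets (0.899%) and all below for 305 (2.59%), 3.49% either way. Among the 335 risers of at least 1, 24 (7.16%) lay fully above and 2 (0.597%) fully below, and 102 (30.4%) had an unadjusted p under 0.05 with a larger knockout response against 10 (2.99%) with a smaller one. Among the 285 fallers of at least 1, 39 (13.7%) lay fully below and 0 (0%) fully above, and 139 (48.8%) were deeper and 6 (2.11%) shallower at that unadjusted p. The test of a departure, the knockout response minus the gain times the wild-type response, also called 0 genes (0%), with a smallest adjusted p of 0.0875. There, 1047 probe sets (8.88%) had an unadjusted p under 0.05, 369 above the line (3.13%) and 678 below it (5.75%). The count of calls depended on how the 2 arrays of a mouse were joined. A fit over all 20 arrays with the mouse as a random block called 26 genes for the difference and 6 for the departure, and a stricter filter at the 60th percentile called 5 and 12. The differences below are therefore values with their standard errors, and what is said to rise or fall rests on the IL-33 response, which passed its own test.

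**Figure D2:**
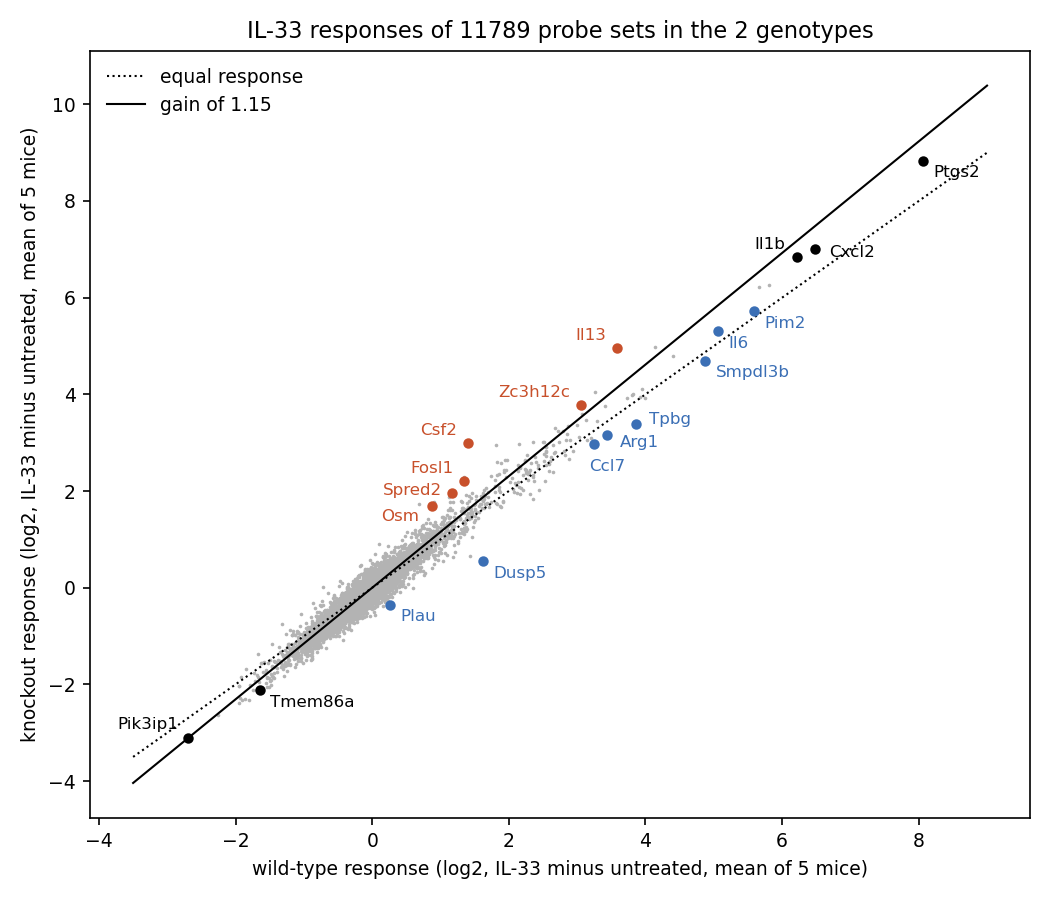
Mean IL-33 response of the knockout (vertical axis) against that of the wild type (horizontal axis), log2, 5 mice each, for the 11789 tested probe sets in grey. The dotted line marks equal responses and the solid line the gain of 1.15. Orange marks chosen genes above the solid line and blue marks chosen genes below it. Black marks other strong responders, of which Ptgs2, Cxcl2 and Il1b also lie below the solid line. Csf2, Il13, Fosl1 and Osm lie above both lines, while Pim2, Il6, Smpdl3b and Arg1 lie near the dotted line.

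Csf2, Il13, Fosl1 and Osm rose in both genotypes, and their knockout responses were the larger by 0.82 to 1.59 on the log2 scale. Csf2 (chromosome 11) encodes GM-CSF, which keeps eosinophils alive and primes them. Its response in wild-type mice 1 to 5 was 1.05, 2.15, 1.32, 1.09 and 1.39, and in knockout mice 1 to 5 it was 2.51, 2.05, 4.17, 3.03 and 3.19. Wild-type mouse 2 lay just above knockout mouse 2, and all other knockout mice were above all wild-type mice. The difference was 1.59 ± 0.34 (SE; limma adjusted p = 0.116, unadjusted p = 0.000476). Without IL-33 the Csf2 signal lay below the dim cut-off, the array's 40th percentile, on 9 of 10 arrays. With such values set to that cut-off the difference was 1.70.

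Il13 (chromosome 11) encodes the type 2 cytokine interleukin-13. Its wild-type responses were 3.69, 4.29, 3.54, 3.47 and 2.93 and its knockout responses 4.76, 4.30, 5.77, 4.75 and 5.21. The groups did not overlap, but the highest wild-type and the lowest knockout mouse, again mouse 2 of each genotype, were 4.29 and 4.30. The difference was 1.37 ± 0.27 (limma adjusted p = 0.116). Fosl1 (chromosome 19), the AP-1 subunit Fra-1, responded by 1.45, 1.41, 1.18, 1.55 and 1.15 in the wild type and by 1.83, 2.28, 2.54, 2.15 and 2.21 in the knockout. All knockout mice were above all wild-type mice, and the difference was 0.86 ± 0.13 (limma adjusted p = 0.0941). Osm (chromosome 11), the interleukin-6 family cytokine oncostatin M, responded by 0.96, 1.18, 0.96, 0.64 and 0.62 against 1.28, 1.59, 1.87, 1.91 and 1.79, without overlap. Its difference was 0.82 ± 0.14 (limma adjusted p = 0.109).

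As estimates, these differences were larger than the gain alone gives, but none of the 4 departures passed its test. Above the gain line Csf2 stood by 1.38, Il13 by 0.82, Osm by 0.68 and Fosl1 by 0.65 on the log2 scale, with limma adjusted p-values for the departure of 0.294, 0.463, 0.199 and 0.188. Over 19 other settings the limma adjusted p of the difference ran from 0.00964 to 0.282 for Fosl1, from 0.0223 to 0.417 for Osm, from 0.0348 to 0.523 for Il13 and from 0.0348 to 0.445 for Csf2. The lowest of each was that with mouse as a random block, and the difference ran from 0.77 to 0.95, 0.75 to 0.92, 1.17 to 1.55 and 1.30 to 1.83. All 4 transcripts differed between genotypes after IL-33, when levels on the treated arrays alone were compared. Those arrays also enter the difference of responses, so this is not an independent test. There the knockout was higher by 1.70 for Csf2, 1.36 for Il13, 0.94 for Osm and 0.81 for Fosl1 (limma adjusted p = 0.00232, 0.00866, 0.0012 and 0.00142). Of all probe sets, 260 (2.21%) passed that treated-array test and 3 (0.0254%) the untreated one.

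**Figure D3:**
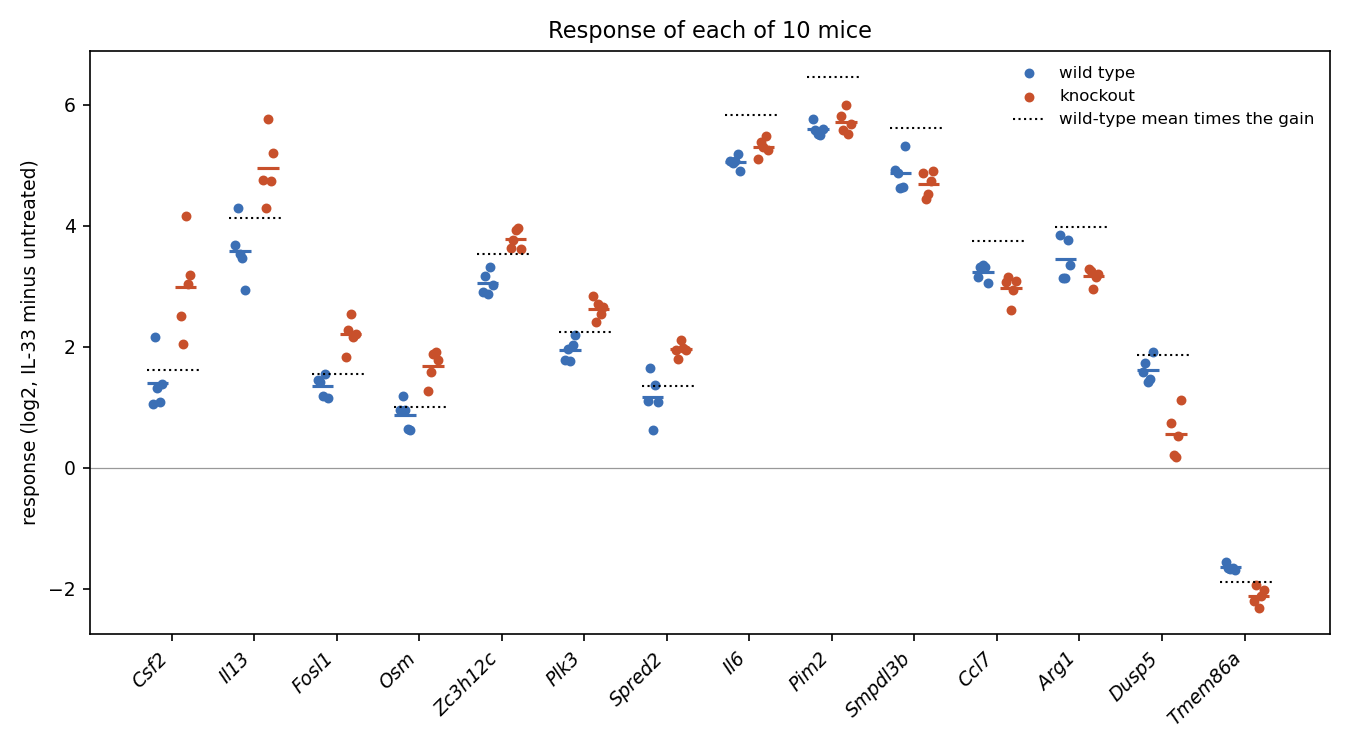
Response to IL-33 (log2, IL-33 minus untreated) of each mouse for 14 genes, wild type in blue and knockout in orange, with bars at the mean of 5 mice and a dotted line at the wild-type mean times the gain. Csf2, Il13, Fosl1, Osm, Zc3h12c, Plk3 and Spred2 have knockout means above the dotted line; Il6, Pim2, Smpdl3b, Ccl7, Arg1 and Dusp5 have knockout means below it, and Tmem86a fell further in the knockout.

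The stretch around the transcription start of Csf2 and Il13, with the largest differences, is shown beside that of Il6 and Pim2, which rose strongly at nearly the same size in both genotypes. The sequences are RefSeq's for build GRCm38.p6, from 250 bases before to 50 after the start, 5′ to 3′ on the gene's own strand. Csf2 is chr11:54249850-54250149 on the minus strand, Il13 chr11:53634653-53634952 on the minus strand, Il6 chr5:30012864-30013163 on the plus strand and Pim2 chrX:7878056-7878355 on the plus strand. Capitals mark matches to 4 motifs, searched on both strands, and the matches do not overlap. The motifs are AP-1 (TGANTCA), the cyclic AMP response element (TGACGTCA), NF-kB (GGGRNWYYCC) and the CArG box bound by SRF (CCWWWWWWGG). In these, R is A or G, Y is C or T, W is A or T and N is any base.
Csf2: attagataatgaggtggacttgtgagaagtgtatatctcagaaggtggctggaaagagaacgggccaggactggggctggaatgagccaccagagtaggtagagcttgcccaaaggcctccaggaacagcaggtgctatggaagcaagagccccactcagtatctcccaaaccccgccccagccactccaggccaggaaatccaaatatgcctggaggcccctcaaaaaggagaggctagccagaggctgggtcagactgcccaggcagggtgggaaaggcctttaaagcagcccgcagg
Il13: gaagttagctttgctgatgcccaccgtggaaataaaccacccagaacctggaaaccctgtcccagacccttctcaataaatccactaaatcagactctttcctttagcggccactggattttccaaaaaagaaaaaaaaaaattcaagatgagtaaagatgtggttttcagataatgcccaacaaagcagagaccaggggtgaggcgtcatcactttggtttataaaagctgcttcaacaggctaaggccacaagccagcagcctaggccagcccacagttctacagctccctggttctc
Il6: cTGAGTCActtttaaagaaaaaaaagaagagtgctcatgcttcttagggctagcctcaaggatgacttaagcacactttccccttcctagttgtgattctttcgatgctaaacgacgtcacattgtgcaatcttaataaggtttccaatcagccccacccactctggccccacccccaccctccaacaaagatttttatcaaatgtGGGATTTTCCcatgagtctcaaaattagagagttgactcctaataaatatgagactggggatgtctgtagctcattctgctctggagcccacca
Pim2: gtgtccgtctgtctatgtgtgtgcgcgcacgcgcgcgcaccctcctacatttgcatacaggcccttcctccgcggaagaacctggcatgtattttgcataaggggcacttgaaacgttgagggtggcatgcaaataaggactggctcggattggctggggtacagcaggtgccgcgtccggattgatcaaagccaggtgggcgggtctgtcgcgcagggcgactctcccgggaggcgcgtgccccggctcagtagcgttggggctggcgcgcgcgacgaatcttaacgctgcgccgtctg
The Il6 window held 1 AP-1 match, which starts 249 bases before the transcription start, and 1 NF-kB match, which starts 44 bases before it. The windows of Csf2, Il13 and Pim2 held none of the 4 motifs as spelled here. Of 32851 mouse promoter windows of the same length, 7.81% held the AP-1 motif, 4.51% the NF-kB motif, 1.63% a CArG box and 1.79% the cyclic AMP response element. A match is a run of letters, not a measured site, and sequence outside these windows was not searched.

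Other cytokine transcripts were unequal among themselves. In the list of type 2 cytokines and colony-stimulating factors, 4 of 6 tested genes rose, and the median difference was 0.05, against -0.03 over all tested probe sets. Il4, the cytokine that starts type 2 immunity and lies near Il13, rose by 1.20 in the wild type and 1.28 in the knockout, a difference of 0.08 with a 95% interval of -0.32 to 0.49. Among the interleukin-6 family, Il6 rose by 5.06 and 5.30 (difference 0.25 ± 0.08). Lif barely moved in the wild type (0.05) and responded by 0.48 in the knockout (difference 0.43 ± 0.16). In the interleukin-1 family the alarmin Il1a rose by 4.14 and 4.98, Il1b by 6.22 and 6.84 and the receptor antagonist Il1rn by 2.85 and 3.17. Tnf rose by 3.26 and 4.04, and Inhba, the activin A subunit, by 0.69 and 1.74.

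Chemokine responses were mixed. Of 10 CXC and 11 CC chemokines tested, 8 of each rose, but the difference was positive for 5 of each, and the medians were 0.00 and 0.00. Ccl7, a monocyte attractant, responded by 3.15, 3.32, 3.36, 3.32 and 3.05 in the wild type and by 3.07, 3.16, 2.60, 2.94 and 3.09 in the knockout. The groups overlapped, with the knockout mean the lower by 0.27 ± 0.11 and a departure of -0.77 (limma adjusted p = 0.101). With separate gains for rises and falls the Ccl7 departure was -0.62 (limma adjusted p = 0.221). The related Ccl2 (2.59 and 2.40) and Ccl3 (3.21 and 3.10) and the neutrophil attractant Cxcl3 (3.99 and 3.93) rose with close means. Cxcl2 rose by 6.48 and 7.01 and Ccl4 by 3.41 and 3.77. Cxcl10 rose by 2.59 and 2.56.

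Early growth response genes, with the Ier genes and the Nab corepressors in the same list, had positive differences. Of the 10 tested members 9 rose, and the difference was positive for 10 of 10, where 40.5% of all tested probe sets had a positive difference. More of all tested probe sets fell (44.2%) than rose (27.7%). Among the 3271 that rose, the knockout response was the larger for 65.4%. The difference had an unadjusted limma p under 0.05 for 4 of the 10, and 0 passed after adjustment. The share with such a p and a larger knockout response was 4.28% of all tested and 30.4% of risers of at least 1. The median difference was 0.27 and the median departure 0.05. Egr1, the SRF and ERK target, rose by 2.14 and 2.98, Egr2 by 2.54 and 2.91 and Egr3 by 2.80 and 3.24. The early response gene Ier2 barely moved in the wild type (0.08) and responded by 0.54 in the knockout, a difference of 0.47 ± 0.09 without overlap. Nr4a1, an orphan nuclear receptor of the same early class that belongs to none of the lists, rose by 1.82 and 2.59. Wild-type mouse 2 had the lowest response of its group for Egr1 (1.27) and Egr3 (1.50). Without that mouse the difference was 0.62 for Egr1 and 0.12 for Egr3, so most of the Egr3 difference rested on 1 mouse.

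AP-1 subunits did not move as 1 group. Of 11 tested, 8 rose and 1, Fos, fell. Besides Fosl1, Junb rose by 0.78 and 1.05 (difference 0.27 ± 0.10). Jun rose by 1.04 and 0.87, Batf by 1.52 and 1.56 and Fosl2 had responses of 0.04 and 0.01. Fosl1 was thus the member with the largest difference, and the median over the list was 0.07.

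Genes known as ERK outputs and ERK brakes varied among themselves. In that list 12 of 17 rose and 3 fell. At an unadjusted p under 0.05, 5 had a more positive knockout response and 2 a more negative one (4.28% and 9.59% of all tested). Among risers of at least 1 these shares were 30.4% and 2.99%. Spred2, an inhibitor of Ras to ERK signalling, responded by 1.11, 1.65, 0.62, 1.37 and 1.09 in the wild type and by 1.95, 1.79, 2.12, 1.98 and 1.95 in the knockout. The groups did not overlap, and the difference was 0.79 ± 0.16 (limma adjusted p = 0.116). Dusp6, the cytoplasmic ERK phosphatase, responded by 0.65, 0.67, 0.64, 0.54 and 0.76 against 1.19, 0.93, 1.31, 1.11 and 0.87. Every knockout mouse was above every wild-type mouse, and the difference was 0.43 ± 0.09. Etv5, an ETS factor downstream of ERK, rose by 0.46 and 0.89, and Phlda1 by 3.06 and 3.71. Dusp4, another nuclear ERK phosphatase, rose by 1.18 and 1.04, Etv4 responded by 0.19 and 0.13, and Spry2 fell by 0.82 and 0.96. None of these 3 had an unadjusted p under 0.05. The 2 members more negative at that p were Plau (difference -0.61, described below) and Ccnd1, which fell by 0.29 and 0.54. The median difference of the list was 0.13 and the median departure -0.04. At that p, 4 members lay above the gain line and 4 below it (3.13% and 5.75% of all tested).

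The Dusp5 probe set itself rose by 1.62 ± 0.20 in the wild type (SD, n = 5 mice). In the knockout the residual signal moved from a mean of 4.40 to 4.95. Its difference of -1.07 ± 0.17 and departure of -1.31 are those of the deleted gene itself.

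Genes of the NF-kB loop rose in both genotypes. The difference was positive for 13 of 17 tested members, beside 65.4% of all probe sets that rose. At an unadjusted limma p under 0.05, 5 had a more positive knockout response and 0 a more negative one. Among risers of at least 1 these shares were 30.4% and 2.99%, and over all tested probe sets 4.28% and 9.59%. For several members the difference was close to 0. All 17 tested members of the list rose, the median difference was 0.11 and the median departure -0.28, with 8 members below the gain line at an unadjusted p under 0.05 and 0 above. Over all tested probe sets these shares were 5.75% below and 3.13% above, and among the 117 risers of at least 2 there were 46 below and 8 above. Measured against the gain of rises alone, the median departure was -0.17. Nfkb2, the precursor of p52, responded by 2.66, 2.42, 2.36, 2.50 and 2.75 in the wild type and by 2.44, 2.36, 2.52, 2.57 and 2.79 in the knockout. The groups overlapped fully, and the 95% interval of the difference ran from -0.22 to 0.22. The other NF-kB subunit Relb rose by 2.60 and 2.61, the inhibitor Nfkbia by 2.62 and 2.70, and the ubiquitin-editing brake Tnfaip3 by 2.29 and 2.24. Rel (1.73 and 2.32) and Traf1 (2.72 and 3.25) were the 2 members with the largest positive differences.

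Kinase and STAT feedback genes varied among themselves. The difference was positive for 9 of 10 tested members, with a median of 0.17. Of these members 7 rose, and of all probe sets that rose 65.4% had the larger response in the knockout. Pim3 rose by 2.68 and 3.30 and Cish, a cytokine-induced inhibitor of STAT5 signalling, by 2.87 and 3.35. Pim2, a survival kinase, responded by 5.77, 5.59, 5.51, 5.49 and 5.60 in the wild type and by 5.82, 5.58, 6.0, 5.52 and 5.68 in the knockout. The groups overlapped, the 95% interval of the difference was -0.09 to 0.34, and the departure was -0.74 (limma adjusted p = 0.0875, the smallest of the departures together with Dusp5). The limma adjusted p of that departure was 0.0241 with mouse as a random block and 0.232 with separate gains for rises and falls, where the departure was -0.48. Socs3 rose by 3.92 and 3.95.

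The strongest risers as a group followed a smaller gain than the whole. Of 117 probe sets that rose by at least 2 on the log2 scale, 84 lay below the overall gain line and 33 above it, and 73 and 44 against the gain of rises alone. For 39 the 95% interval of the difference lay above 0, for 5 below 0, and for 11 within 0.3 of 0 on both sides. Smpdl3b, which encodes a membrane-bound lipid phosphodiesterase, had responses of 4.92, 4.87, 4.62, 4.64 and 5.31 against 4.87, 4.45, 4.53, 4.74 and 4.90. The groups overlapped, and its departure was -0.93 (limma adjusted p = 0.101). With separate gains for rises and falls the Smpdl3b departure was -0.71 (limma adjusted p = 0.221). Arg1, the arginase of type 2 activated macrophages, rose by 3.44 and 3.17 and the arginine transporter Slc7a2 by 2.88 and 2.65, while Arg2 rose by 2.06 and 2.05. Among the 10 largest mean rises, Cd69 rose by 5.66 and 6.22, Nfkbiz by 5.80 and 6.26 and Acod1 by 4.41 and 4.80. The groups did not overlap for Cd69 (limma adjusted p of the difference = 0.116) and overlapped for Nfkbiz and Acod1. The slope differed little with brightness. It was 1.10 for risers that ended under a level of 8, 1.11 between 8 and 10, 1.08 between 10 and 12 and 1.07 from 12 up. Over the 31 strongest risers that ended under 12 it was 1.08.

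Among genes named for their small p rather than for a role, chosen after their values were seen, Zc3h12c and Plk3 stood out. Zc3h12c, a CCCH zinc-finger gene of the Regnase family, responded by 2.91, 3.17, 2.87, 3.31 and 3.02 in the wild type and by 3.64, 3.77, 3.93, 3.96 and 3.62 in the knockout. Plk3, a polo-like kinase, responded by 1.78, 1.96, 1.76, 2.04 and 2.19 against 2.84, 2.41, 2.70, 2.54 and 2.66. Neither gene overlapped between genotypes, and the limma adjusted p was 0.0941 for both, with differences of 0.73 ± 0.10 and 0.69 ± 0.10. Both passed under the 60th percentile filter and with mouse as a random block; over 19 other settings the adjusted p ran from 0.0223 to 0.523 for each. Ppp1r3b, a glycogen-targeting subunit of protein phosphatase 1, rose by 0.73 and 1.24, and Abtb2 by 1.12 and 1.88.

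Untreated levels are given beside those after IL-33; the gaps were not compared between genes by a test. For Il13, Fosl1 and Osm the untreated knockout minus wild-type difference was -0.01, -0.05 and 0.12. Starting levels of Csf2 cannot be compared, since they lay below the dim cut-off on 9 of 10 arrays. For Egr1 it was 0.68 untreated and 1.52 after IL-33, and for Egr3 it was 1.16 and 1.60. Dusp6 had 0.53 and 0.96, and Etv5 had 0.48 and 0.91. The untreated gaps of these 4 genes had limma adjusted p-values of 0.31 to 0.39, while after IL-33 those of Egr1, Egr3 and Dusp6 passed (0.000183, 0.00659 and 0.0374). Cxcl3 was 0.85 above the wild type before and 0.78 after IL-33, which left equal responses, and neither gap passed.

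**Figure D4:**
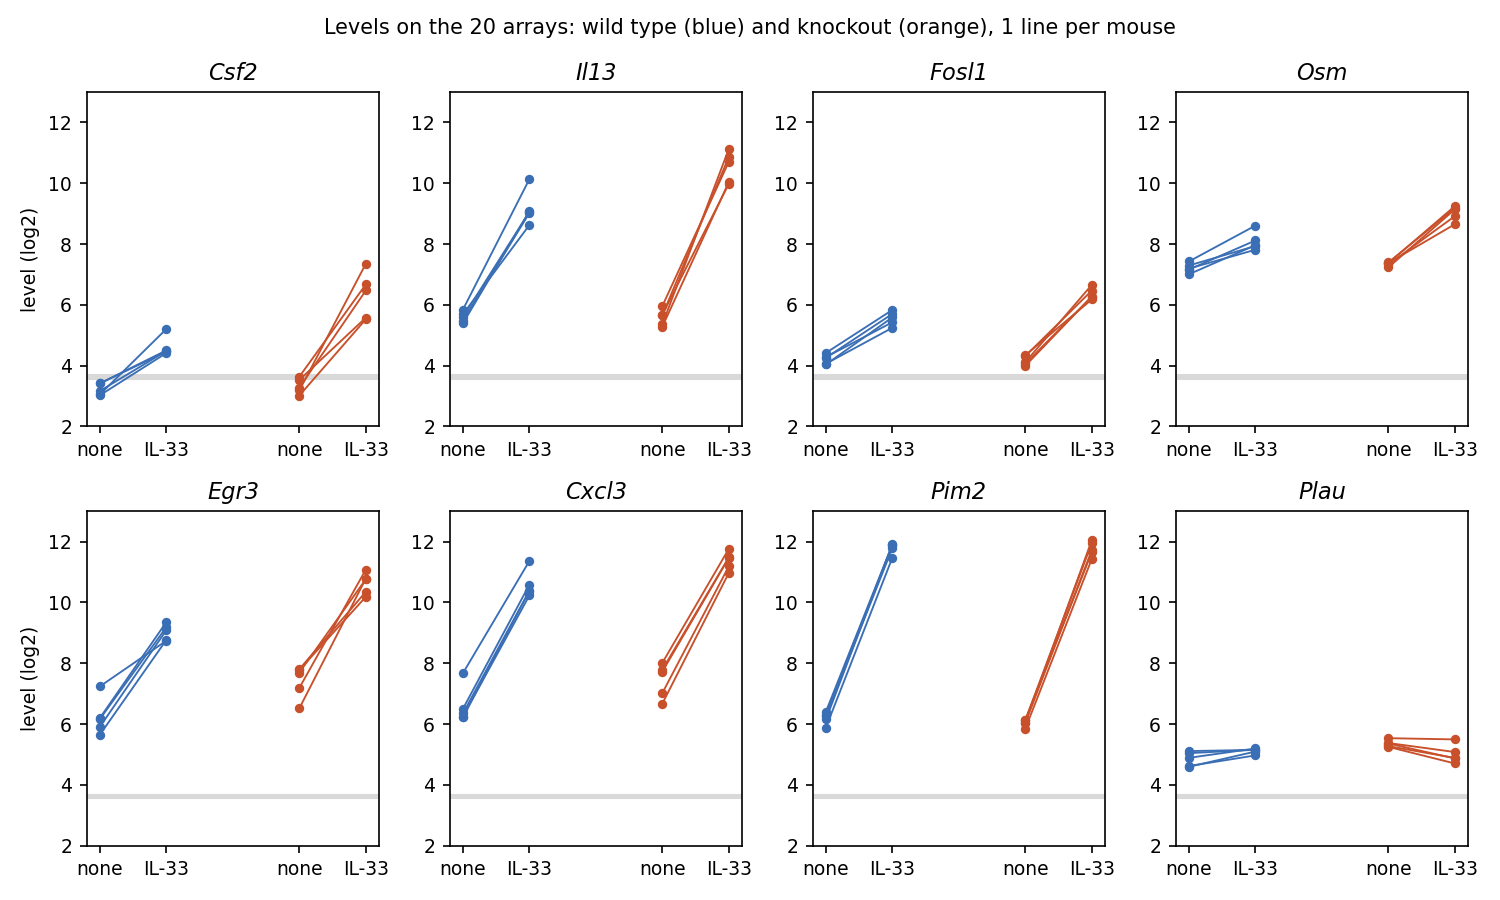
Levels (log2) on the 20 arrays for 8 genes, untreated (none) and with IL-33, with 1 line per mouse, wild type in blue and knockout in orange; the grey band spans the 40th percentiles of the arrays, the dim cut-off. Il13, Fosl1 and Osm have mean gaps of at most 0.12 untreated and end higher in the knockout, Csf2 starts mostly below the band, Egr3 and Cxcl3 start higher in the knockout on average, Pim2 starts and ends alike, and Plau moves in opposite directions.

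A few genes moved against the common direction. Plau, the urokinase-type plasminogen activator, responded by 0.04, 0.50, 0.35, 0.11 and 0.31 in the wild type and by -0.55, -0.49, -0.39, -0.30 and -0.04 in the knockout. The signs were opposite in every mouse, and the difference was -0.61 ± 0.11 (limma adjusted p = 0.116). Untreated levels were 0.51 higher in the knockout and levels after IL-33 were 0.11 lower, with neither passing the test. Its receptor gene Plaur went the other way, with responses of -0.36 and 0.02. The drug efflux transporter Abcg2 responded by 0.39 and 0.02, and Mphosph9 by -0.65 and -0.11. These 2 and Plau were among the 20 smallest p-values of the departure (-0.65 for Plau, -0.43 for Abcg2 and 0.64 for Mphosph9) and were chosen after their values were seen.

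Most falls were deeper in the knockout (79.8% of the 5215 probe sets that fell). Tmem86a, a lysoplasmalogenase gene, fell by 1.56, 1.65, 1.67, 1.65 and 1.68 in the wild type and by 2.20, 1.94, 2.31, 2.12 and 2.01 in the knockout. The groups were fully apart, and the difference was -0.47 ± 0.08 (limma adjusted p = 0.109). None of the 16 tested FOXO-linked and PI3K-repressed genes rose and 14 fell; the difference was positive for 2, with a median of -0.18 and a median departure of -0.06. In that list Tsc22d3, known as GILZ, a glucocorticoid-induced gene, fell by 1.69 and 2.11, the ubiquitin ligase gene Fbxo32 by 1.86 and 2.30 and the PI3K inhibitor gene Pik3ip1 by 2.69 and 3.10. All 20 tested DNA replication and mitosis genes fell, and the difference was negative for 20 of 20, beside that 79.8% of all that fell. The median difference of the list was -0.14. Its median departure was -0.06, against -0.02 over all tested probe sets. Ccna2 (0.43 and 0.70) and the replicative helicase subunit Mcm5 (0.65 and 0.88) fell without overlap between genotypes. The mean level over that list without IL-33 was 8.83 in the wild type and 8.15 in the knockout, over overlapping ranges (7.96 to 9.43 and 7.75 to 8.73).

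Antioxidant genes rose further in the knockout and stayed near the gain line. Of 12 tested, 11 rose and 11 had a positive difference, with a median of 0.21 and a median departure of 0.01. The knockout response was the larger for 65.4% of all probe sets that rose. Srxn1, which repairs oxidised peroxiredoxins, rose by 1.80 and 2.22 and the thioredoxin reductase gene Txnrd1 by 1.42 and 1.80. Of 12 cholesterol synthesis genes, 7 rose and 9 had a positive difference; Insig1 rose by 1.31 and 1.78, whereas Dhcr7 fell by 0.95 and 1.38. For 14 ribosome biogenesis genes the median difference was -0.03, equal to that of all tested probe sets, and 0 passed an unadjusted p of 0.05 either way (13.9% of all did). Ptgs2, the inducible cyclooxygenase and the strongest riser, responded by 7.11, 8.29, 7.91, 8.38 and 8.63 against 8.96, 8.79, 9.59, 8.42 and 8.42. The groups overlapped, and its untreated signal was below the dim cut-off on 8 of 10 arrays.

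Markers of other cells varied by list, and the granule genes of eosinophils were not called for a response. The median difference of the 3 tested granule protein genes was -0.03, at signals near the top of the table's range, where a change may not be measurable. Of 16 tested markers in the list for eosinophil identity, receptors included, 9 fell and 3 rose. The difference was positive for 6 of these 16, with a median of -0.03. In that list Siglecf fell by 0.71 and 0.61 and Il5ra by 0.84 and 1.08. The mean level over that list was 9.69 in the wild type and 9.91 in the knockout without IL-33. After IL-33 it was 9.57 and 9.77, and the ranges of the 2 genotypes overlapped both times. Over all tested probe sets 40.5% had a positive difference, but of the 5215 that fell 79.8% fell deeper in the knockout. In the neutrophil and monocyte lists 9 of 13 and 9 of 15 fell. The difference was positive for 1 of 13 neutrophil markers (median -0.16) and 3 of 15 monocyte, macrophage and dendritic markers (-0.09). Further, it was positive for 3 of 9 stem and progenitor markers (-0.24) and 4 of 8 mast cell and basophil markers (0.00). It was positive for 2 of 5 lymphocyte markers (-0.17), 0 of 5 erythroid and megakaryocyte markers (-0.15) and 4 of 6 stromal and endothelial markers (0.08). On the treated arrays the mean level over the neutrophil list ranged from 8.59 to 9.36 in the wild type and from 8.56 to 9.20 in the knockout. Over the monocyte list it was 8.07 to 8.48 and 7.91 to 8.51, and over the mast cell and basophil list 7.01 to 7.23 and 6.96 to 7.21. These ranges overlap. Over the progenitor list it was 5.79 to 6.30 and 5.44 to 5.87. The receptor gene Kit, in both the progenitor and the mast cell list, fell by 0.43 ± 0.71 and 1.07 ± 0.13 (SD, n = 5 mice each). The part of other cells in the differences of responses was not tested.

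**Figure D5:**
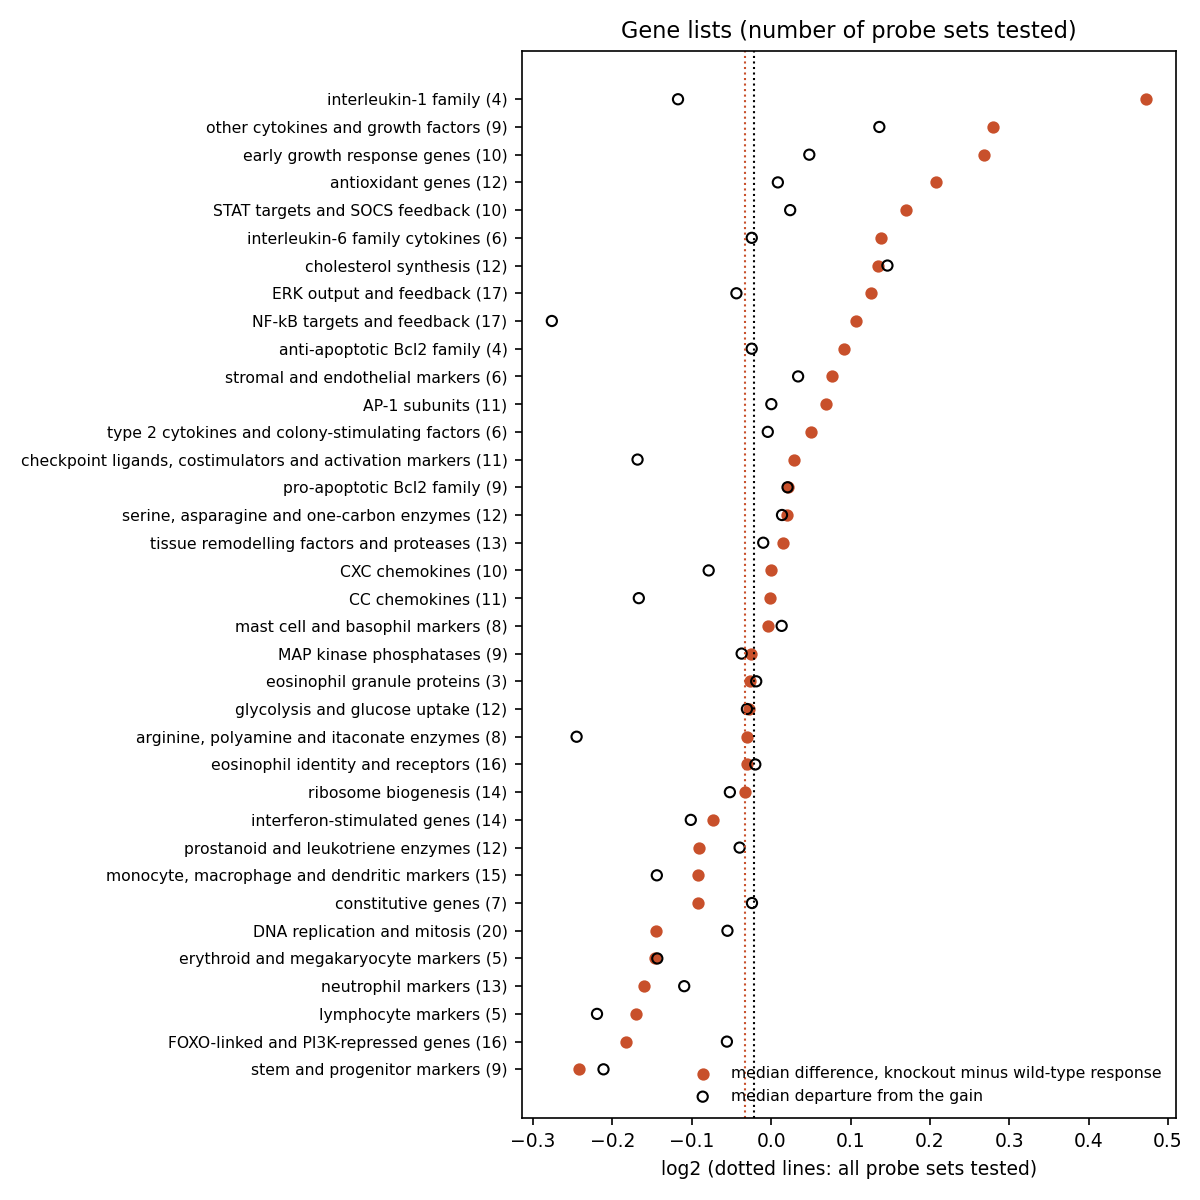
Median over each gene list of the difference, knockout minus wild-type response (orange), and of the departure from the gain (open circles), log2, with the number of tested probe sets in brackets and dotted lines at the medians of all tested probe sets. Early growth response and antioxidant genes have positive median differences with departures near 0, the NF-kB list has a median departure of -0.28, and the DNA replication and progenitor lists have negative differences.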

How the data were processed

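RNA of 20 cultures was hybridised to one-colour Affymetrix arrays, per the labels' protocols. The authors deposited 1 table of log2 values, with no background correction or normalization stated in the sources used here; the log2 scale was read from the values. Any scaling between arrays before deposit bears on the size of every response. Array medians were 4.25 to 4.32. The number of arrays limits the precision. Gene names came from the platform annotation: 17826 probe sets had 1 symbol, 91 several and 2711 none, and 17675 matched RefSeq (GRCm38.p6). A probe set was tested if it exceeded the array's 40th percentile (3.56 to 3.68) on at least 5 arrays.

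Untreated values were subtracted within each mouse, and lmFit and eBayes of limma 3.58.1 (R 4.3.3) compared 5 with 5 responses, with Benjamini-Hochberg adjustment over 11789 probe sets. The gain is the total least squares slope through the origin; the departure is the knockout response minus the gain times the wild-type response. The script was checked on simulated data. Replicate numbers served as mouse numbers: the deviations of the 2 arrays with the same genotype and number correlated at 0.261 to 0.783, best with each other in 10 of 10 pairs. The labels give 5 mice per genotype, but no litter or calendar date of culture.

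Set to be named were Csf2, Il13, Fosl1, Osm and Dusp5, and called genes with the largest differences and departures (there were none). The 10 largest rises, the 5 largest falls and 1 to 3 members of each list were added. Of these, the falls Cnnm2, Osbpl5 and Sncaip and some list members, such as Bcl2 and Sod2, are not described above. The remaining named genes were picked with their values known. The genes and lists were chosen with earlier results of these data known. Alternatives changed the block, filter, floor, scaling, variance model, gain and mice.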

Additional observations from a re-analysis of the deposited data

Results flagged for a closer look

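Single mice stood apart within their genotype for 9 named responses and 1 slope, by Dixon's 95% criterion, among 258 groups of 5 mice that were checked; chance marks about 1 group in 20. Wild-type mouse 2 was the one apart for Egr1 (1.27), Egr3 (1.50), Ltb (1.32), Phgdh (1.29), Cipc (-1.24) and Fbxo31 (-2.32). Wild-type mouse 1 was apart for Tmem86a (-1.56), knockout mouse 1 for Rab20 (2.20) and knockout mouse 3 for Dhcr7 (-1.63). Among risers of at least 1 the lowest wild-type slope was 0.894.

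The slopes of the mice differed between genotypes by 0.142 (exact 2-sided permutation test, p = 0.00794, 5 mice each).

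Probe sets without a gene symbol were left out of the comparison. Of 1114 such probe sets that were bright enough, 82 had an unadjusted p under 0.05 for the difference, and 1 had an adjusted one. That probe set, 1434430_s_at, rose by 3.79 in the wild type and 4.75 in the knockout, a difference of 0.95 ± 0.12 (SE; limma adjusted p = 0.0421 over 12903 probe sets with and without a symbol). Its 5 knockout responses (4.54 to 4.97) lay above its 5 wild-type ones (3.46 to 4.00).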

How the results depend on the processing

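The larger knockout answer kept its direction in every setting tried. The gain of 1.15 ran from 1.13 to 1.17 when single mice were left out, was 1.11 by ordinary least squares and was 1.22 over genes that fell on average. The slope difference ran from 0.121 to 0.156 without single mice, with exact p from 0.00794 to 0.0159. The number of genes called did depend on the setting. For the difference it was 26 with the replicate block as a random effect (consensus correlation 0.464), 5 with the 60th percentile filter (Fosl1, Plk3, Zc3h12c, Dusp5 and Tmem86a) and 0 to 2 without single mice: Abtb2 and Gpr174 without wild-type mouse 3, Fosl1 without knockout mouse 1 and Dusp5 without knockout mouse 5. For the departure it was 6 with the random replicate block (Dusp5, Pim2, Ccl7, St6gal1, Cfl2 and Agpat5), 12 with the 60th percentile filter, 2 over probe sets above the 40th percentile on all 20 arrays (an alternative added after the data were seen) and 0 to 1 without single mice. With no replicate block no gene was called, and 568 probe sets for the difference and 368 for the departure had an unadjusted p under 0.05, in place of 1635 and 1047. The cause of these shifts was not tested, except that a higher filter leaves fewer probe sets to adjust over.

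For the 125 named genes no difference passed the threshold in the main setting, so none could drop below it. Of 2367 recomputed differences, 2304 kept their direction and again did not pass, 25 newly passed and 38 turned sign. Those that turned were all close to 0. Without single mice they ranged from -0.244 to 0.0344 for Bmf, -0.115 to 0.00215 for Etv4, -0.0277 to 0.212 for Il4, -0.0794 to 0.0128 for Fosl2, -0.0445 to 0.129 for Pecam1, -0.0897 to 0.157 for Socs3, -0.0638 to 0.0937 for Relb, -0.141 to 0.0947 for Cxcl10, -0.0608 to 0.0380 for Arg2, -0.0352 to 0.0150 for Rrs1 and -0.0657 to 0.0526 for Nfkb2. Further quantile normalization turned Cxcl10 (0.0361), Arg2 (0.0475) and Rrs1 (0.00509), and centring the arrays on their medians turned Rrs1 (0.00644) and Nfkb2 (0.00744).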
